A study of Mus musculus with 9 samples.

Results

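The aquaporins, a family of membrane channels for water and small solutes, were followed through 3 populations of luminal epithelial cells sorted from adult mouse mammary glands. Members were chosen by gene name: Aqp1, Aqp2, Aqp3, Aqp4, Aqp5, Aqp7, Aqp8, Aqp9 and Aqp11 were looked up by NCBI gene ID, and all 9 were found among the 27179 genes of the deposited count table. The list carries no threshold, but it was drawn up with the levels and differences of these same libraries known, so the members' values are a description and support no claim of their own. The other mouse aquaporin genes, Mip, Aqp6 and Aqp12, are given beside them.

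Each population was represented by 3 libraries. HR-negative LP cells (HR- LP in the labels) were lineage negative, CD14 positive and negative for YFP, a reporter switched on by PR-cre. HR-positive LP cells (HR+ LP) carried the same surface markers and were YFP positive. ML cells were lineage negative and CD14 negative. The ML libraries are labelled YFP positive, whereas the series' design text calls that population YFP negative; the sample labels were followed. All 3 populations were adult mammary luminal cells from a PR-cre/YFP background, with no treatment given in the labels. PR-cre marks cells that have expressed the progesterone receptor, so the reporter records past as well as present activity of that promoter. The labels do not say whether libraries came from separate animals, and p-values therefore measure only the spread between these libraries.

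Library totals ran from 27219103 to 108119756 counts. On the second principal component, which held 10.1% of the variance, HR-negative LP replicate 3 stood apart from the other libraries of its population (-91.6 against 15.8 and 39.5), and aquaporin results that change without it are marked. The gate gene Cd14 was at 1114 ± 103, 324 ± 35.2 and 24.7 ± 6.04 CPM (counts per 1000000, scaled by TMM, the trimmed mean of M-values; mean ± SD, n = 3), in the order HR-negative LP, HR-positive LP, ML, which is kept wherever 3 levels follow each other. Pgr, the progesterone receptor gene, was at 9.42 ± 5.54, 279 ± 65.8 and 435 ± 144 CPM. The 7 pan-luminal markers, keratins and claudins among them, summed to between 13036 and 17450 CPM in every library, and all 7 were detected in each population.

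Aquaporins sit in the membrane as tetramers, each subunit with its own pore. Water-selective members such as Aqp1, Aqp2, Aqp4 and Aqp5 speed the movement of water along osmotic gradients that ion transporters set up, while aquaglyceroporins such as Aqp3, Aqp7 and Aqp9 also pass glycerol. Several members pass hydrogen peroxide as well. In exocrine glands Aqp5 is best known as the channel of the apical membrane, and Aqp3 as a channel of the basolateral membrane.

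The promoters of Aqp1, Aqp3 and Aqp5 are shown because these 3 genes made up more than 99% of the aquaporin signal in every library and did not follow 1 pattern. Each window runs from 250 bases before to 50 bases after the annotated start (RefSeq, GRCm38.p6), 5′ to 3′ on the strand of the gene. Capitals mark matches to the GC box GGGCGG or the TATA box TATAAA on either strand.
Aqp1, chr6:55336049-55336348, plus strand: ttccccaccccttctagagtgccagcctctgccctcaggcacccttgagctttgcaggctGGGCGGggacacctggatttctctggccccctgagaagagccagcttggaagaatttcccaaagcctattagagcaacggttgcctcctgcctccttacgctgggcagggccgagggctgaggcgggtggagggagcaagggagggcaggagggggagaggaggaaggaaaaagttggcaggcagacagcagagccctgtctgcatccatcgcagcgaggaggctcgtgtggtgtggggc
Aqp3, chr4:41098134-41098433, minus strand: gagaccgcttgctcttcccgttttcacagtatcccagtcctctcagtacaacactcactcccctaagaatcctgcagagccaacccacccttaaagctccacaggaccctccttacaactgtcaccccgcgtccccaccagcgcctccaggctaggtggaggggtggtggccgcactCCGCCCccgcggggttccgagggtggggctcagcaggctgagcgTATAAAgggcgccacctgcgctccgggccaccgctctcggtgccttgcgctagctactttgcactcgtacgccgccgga
Aqp5, chr15:99590778-99591077, plus strand: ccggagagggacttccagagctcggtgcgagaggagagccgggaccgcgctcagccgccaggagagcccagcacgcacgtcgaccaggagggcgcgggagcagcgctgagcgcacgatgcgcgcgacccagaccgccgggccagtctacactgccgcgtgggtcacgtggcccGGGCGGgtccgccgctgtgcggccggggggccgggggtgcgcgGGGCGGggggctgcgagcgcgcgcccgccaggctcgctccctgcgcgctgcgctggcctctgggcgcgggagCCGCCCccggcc

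The 3 windows differed in base composition. The Aqp5 window was 79.7% G and C with 46 CG dinucleotides, and 98.8% of 32851 RefSeq promoter windows of the same length had a lower G and C content. The Aqp1 window held 62.7% and 8 CG dinucleotides, and the Aqp3 window 64.0% and 21. A GC box occurred once in the Aqp1 and Aqp3 windows and 3 times in that of Aqp5, against 35.7% of all windows with at least 1. Aqp3 alone of the 3 had a TATA box, at -29 from the annotated start, a motif found in 13.6% of all windows. Searches on both strands for the palindromic estrogen response element (0.07% of windows), its arm AGGTCA (16.3%), the forkhead core TGTTTAC (3.65%) and the STAT site TTCNNNGAA (8.3%) gave no match in these letters.

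Aquaporin genes lie in neighbourhoods in the mouse genome (mm10). On chromosome 15, Aqp2 (99579056 to 99584545), Aqp5 (99591028 to 99594829) and Aqp6 (99598468 to 99605478) follow each other on the plus strand with gaps of 6482 and 3638 bases. On chromosome 4, Aqp7 (41033074 to 41048237) and Aqp3 (41092724 to 41098183) are separated by 44486 bases. Aqp1 lies alone on chromosome 6 (55336299 to 55348555), and Aqp8 and Aqp11 are far apart on chromosome 7. RefSeq places a further gene, Gm34765, in overlap with Aqp2, Aqp5 and Aqp6. Aqp4, Aqp9 and Mip overlap A830021F12Rik, Gm32714 and Gm26847. These further genes were not analysed here. Because the library kit does not mark strand, reads from them could not be told apart from those of the aquaporins they overlap.

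Levels of different genes were compared per length, as TMM-scaled CPM divided by the deposited gene length in kilobases. Aqp5 led in every population, with means of 110, 362 and 436 per kilobase. Among the 15910 genes tested, that placed it in the top 3.79%, 0.83% and 0.647%. In HR-negative LP, Aqp1 came next at 50.0 per kilobase and Aqp3 after it at 18.8, and the ranges of neighbours in this order overlapped. Within each HR-negative LP library the order was nevertheless the same. Aqp5, Aqp1 and Aqp3 were at 139, 29.2 and 7.52 per kilobase in replicate 1. They were at 128, 70.2 and 10.9 in replicate 2, and at 63.2, 50.7 and 37.9 in replicate 3. In HR-positive LP and ML the second place went to Aqp3, at 39.9 and 49.7 per kilobase, and the third to Aqp1, at 11.9 and 1.73. There Aqp5, Aqp3 and Aqp1 were separated from each other in all libraries.

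A wide gap followed. Aqp2 reached at most 1.19 per kilobase as a population mean, and Aqp11 at most 0.899. In ML the libraries of Aqp1 (1.07 to 2.26 per kilobase) and Aqp2 (0.710 to 1.67) overlapped, so their order there is not resolved. Aqp4, Aqp6, Aqp7, Aqp8 and Aqp9 stayed at or below 0.205 per kilobase in each population mean. Mip, the lens aquaporin gene, and Aqp12 had no count in any of the 9 libraries, which allows at most between 0.0277 and 0.110 CPM per library (3 counts of the total, counting error only).

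**Figure D1:**
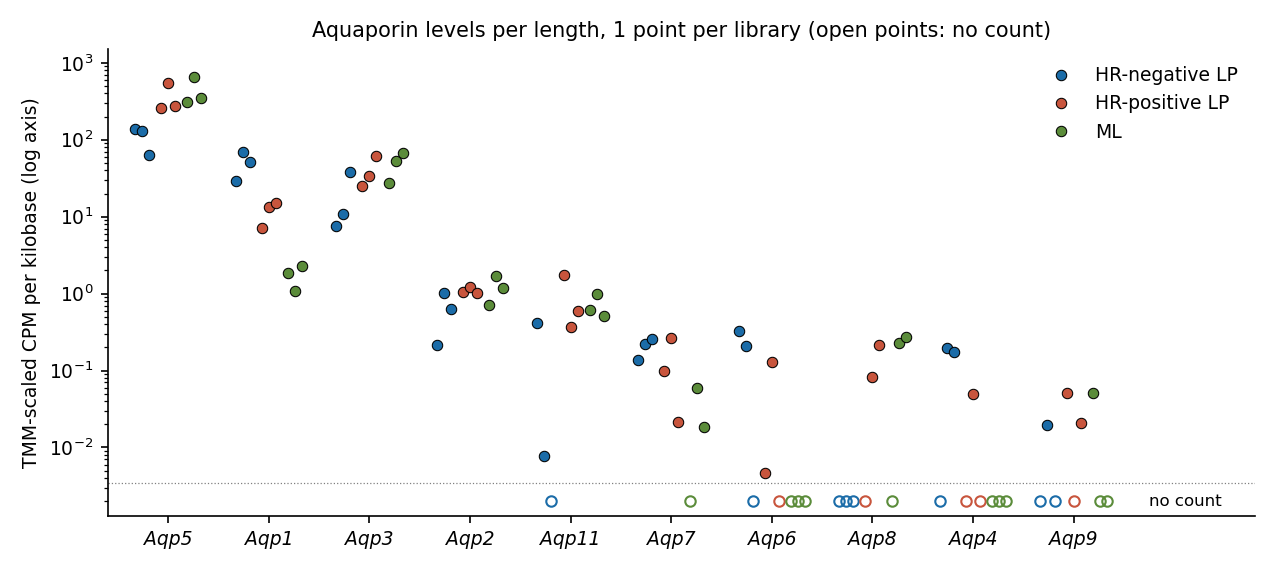
Levels of 10 aquaporin genes per kilobase of gene length (log axis), 1 point per library, coloured by population, with open points below the dotted line for libraries with no count. Aqp5 is the highest in all 9 libraries, and Aqp1 drops from 50.0 to 1.73 per kilobase between HR-negative LP and ML, whereas Aqp5 goes from 110 to 436; the Aqp3 libraries of these populations overlap.

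The make-up of the aquaporin transcripts therefore differed in its second component. Aqp1 supplied 16.5%, 33.4% and 33.2% of the signal per length in the HR-negative LP libraries, 2.36%, 2.25% and 4.29% in HR-positive LP. In ML it supplied 0.555%, 0.151% and 0.539%. The 3 populations did not overlap in this share. Aqp5 supplied 41.4% to 78.6% in HR-negative LP, with the lowest share in replicate 3, and 77.9% to 91.9% across the HR-positive LP and ML libraries. The remaining 9 genes together held between 0.352% and 0.993% of the signal.

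**Figure D2:**
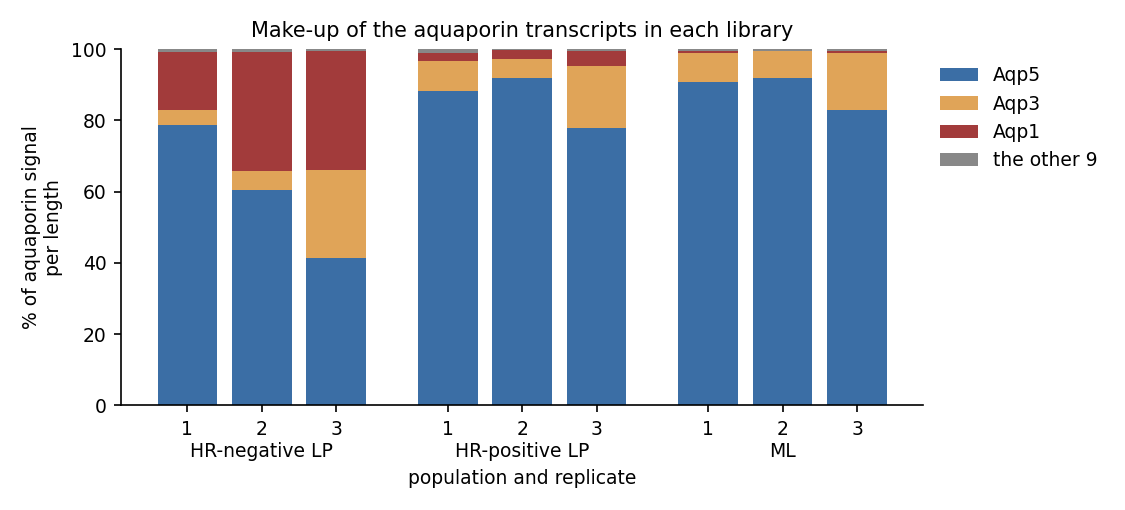
Share of the aquaporin signal per length (in %) held by Aqp5, Aqp3, Aqp1 and the other 9 genes, 1 stacked bar per library, grouped by population. Aqp1 holds 16.5% to 33.4% in HR-negative LP and at most 4.29% in any other library.

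Aqp1 encodes the water channel found in red blood cells, capillary endothelium and the renal proximal tubule. Its level was 80.5, 194 and 140 CPM in HR-negative LP replicates 1 to 3. In HR-positive LP it was 19.4, 37.1 and 42.1 CPM. In ML it was 5.16, 2.96 and 6.24 CPM. Every HR-negative LP library lay above every HR-positive LP library, and every one of those above every ML library. The log2 fold change was -2.07 (SE 0.38) from HR-negative LP to HR-positive LP, -2.78 (SE 0.40) from HR-positive LP to ML, and -4.86 (SE 0.43) from HR-negative LP to ML, the last a 29.0-fold difference. On the log2 scale HR-positive LP lay 0.43 of the way from HR-negative LP to ML. Aqp1 was lower by the test over all genes (edgeR quasi-likelihood, Benjamini-Hochberg adjusted p below 0.05) in all 3 comparisons, and it stayed so under all 17 alternatives of each. In sorted bulk samples, fewer cells with Aqp1 RNA and less Aqp1 RNA per cell cannot be told apart.

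Markers of other cell types, capillary and red cells that carry Aqp1 among them, were read beside it. The 10 endothelial markers summed to 9.42 to 18.1 CPM in HR-negative LP, 48.4 to 68.2 CPM in HR-positive LP and 67.3 to 87.7 CPM in ML. Most of this sum in HR-positive LP and ML was Vwf, at 2.92, 46.4 and 66.2 CPM. Pecam1, a general endothelial marker, was at 3.39, 2.50 and 3.37 CPM, and Cdh5 at 0.592, 0.690 and 0.558 CPM. Some other endothelial markers had their highest mean in HR-negative LP, as Aqp1 did. Plvap was at 3.25, 2.04 and 1.58 CPM, Emcn at 0.431, 0.181 and 0.102 CPM, and Tek at 1.18, 0.532 and 0.928 CPM. Cldn5 was at 1.06, 0.0286 and 0.114 CPM, with the libraries of both LP populations apart. Kdr, at 0.229, 0.144 and 0.298 CPM, and Tie1, at 0.328, 0.174 and 0.452 CPM, had their highest mean in ML. Relative to HR-negative LP, Vwf and Egfl7 were called higher in both other populations and the remaining 8 markers were not called (edgeR). No endothelial marker was at 0 across a whole population. The 5 erythrocyte markers found in the table summed to 0.343 to 1.57 CPM in HR-negative LP, 3.84 to 11.7 in HR-positive LP and 4.62 to 12.4 in ML.

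Some markers of stromal and immune cells fell where Aqp1 fell. Set against HR-negative LP, 5 of 6 fibroblast markers were called lower in HR-positive LP (edgeR) and 3 in ML. Over all tested genes 12.8% and 21.3% were called lower in these comparisons. Dcn was called higher in both, at 8.94, 129 and 153 CPM. Pdgfra, a receptor of fibroblasts, was at 17.5, 4.02 and 0.477 CPM and was called lower in all 3 comparisons, as was the macrophage marker Cd68. Col1a2, a fibrillar collagen gene, was at 20.7, 2.93 and 5.97 CPM, and Col3a1 at 38.7, 5.82 and 12.1 CPM. The fibroblast list summed to 73.7 to 121, 61.3 to 268 and 106 to 318 CPM, and the 7 immune markers to 11.2 to 13.1, 4.75 to 6.71 and 3.05 to 3.34 CPM. Most of the immune sum was Cd68, at 10.2, 4.82 and 2.38 CPM. Of the other immune markers 4 were not called in any comparison and 2 were not tested, and Csf1r was at 0.349, 0.313 and 0.371 CPM. The 7 basal markers summed to 24.8 to 62.8, 22.7 to 35.3 and 22.5 to 35.3 CPM. Among them, Oxtr was at 15.3, 4.52 and 0.293 CPM and was called lower in ML than in either LP population. Krt14, at 14.3, 4.22 and 4.18 CPM, was called lower in both other populations when set against HR-negative LP. Krt5 ran the other way, at 2.25, 4.76 and 6.36 CPM, and its rise from HR-negative LP to ML was called. Of the basal markers not called in any comparison, Acta2 and Trp63 had their lowest mean in HR-negative LP, and Myh11 and Mylk their highest. The part of these cells in the Aqp1 difference was not tested.

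Aqp5, the apical channel of salivary, lacrimal and sweat glands, ran the other way. HR-negative LP libraries held 215, 198 and 98.1 CPM. HR-positive LP libraries held 407, 850 and 429 CPM. ML libraries held 475, 1014 and 539 CPM. All HR-positive LP and ML libraries lay above all HR-negative LP libraries, with replicate 2 the highest in both. The log2 fold change against HR-negative LP was 1.72 (SE 0.39) for HR-positive LP and 1.99 (SE 0.40) for ML, or 3.30-fold and 3.96-fold. Aqp5 was called higher in both, and these comparisons share the HR-negative LP libraries. Both calls held under all 17 alternatives.

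Between ML and HR-positive LP the libraries of Aqp5 overlapped and the log2 difference was 0.27 (SE 0.38), which was not called. Same-numbered libraries of these populations deviated together across genes. In same-numbered libraries the ratio of ML to HR-positive LP was 1.17, 1.19 and 1.25 for Aqp5, and with the number as a block the gene was still not called. Without ML replicate 2, but with HR-positive LP replicate 2 kept, the difference was -0.14. On the log2 scale HR-positive LP lay 0.86 of the way from HR-negative LP to ML for Aqp5, compared with 0.43 for Aqp1. These positions depend on the scale. The CPM means were 170, 562 and 676 for Aqp5 and 138, 32.9 and 4.79 for Aqp1.

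Aqp3 encodes an aquaglyceroporin of the basolateral membrane that carries water, glycerol and hydrogen peroxide. Its level was 13.3, 19.3 and 66.8 CPM in HR-negative LP. It was 43.7, 58.9 and 109 CPM in HR-positive LP, and 48.8, 94.3 and 120 CPM in ML. HR-negative LP replicate 3 fell within the range of both other populations, and the other HR-negative LP libraries fell below it. Replicate 3 was also the highest library of each population. In same-numbered libraries the ratio to HR-negative LP was 3.3, 3.06 and 1.62 for HR-positive LP. For ML it was 3.68, 4.89 and 1.8. Aqp3 differed from HR-negative LP by 1.10 (SE 0.56) in HR-positive LP and by 1.42 (SE 0.57) in ML on the log2 scale. Neither difference was called in the main fit. Both were called with the replicate number as a block and with limma voom. Without HR-negative LP replicate 3 both were called, at 2.11 (SE 0.45) and 2.43 (SE 0.46). The ML difference was also called without ML replicate 1, at 1.71. Between ML and HR-positive LP the difference was 0.32 (SE 0.56) and was not called.

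**Figure D3:**
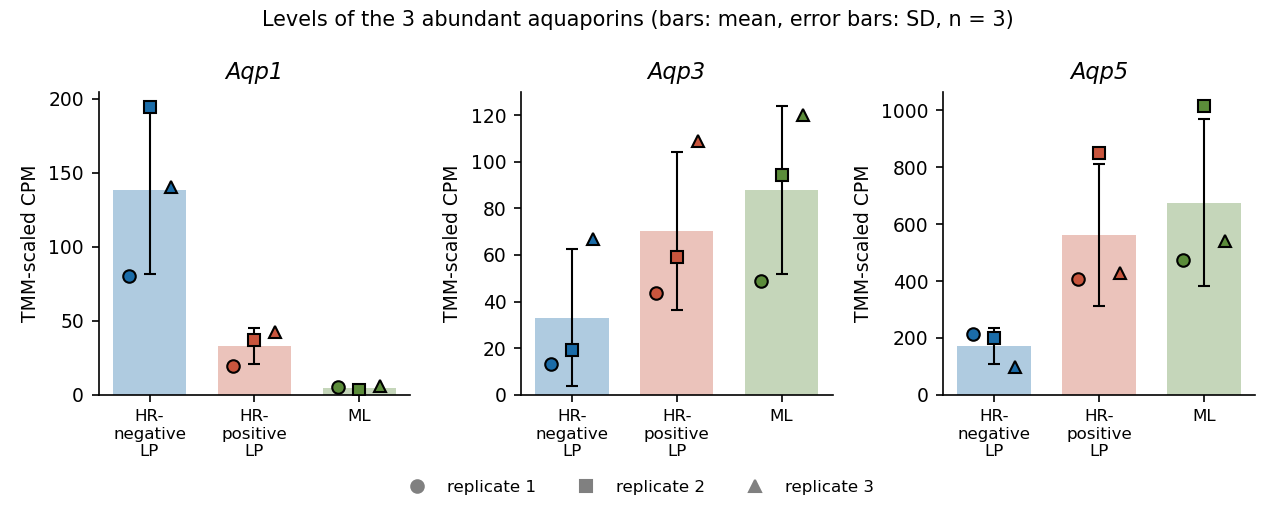
TMM-scaled CPM of Aqp1, Aqp3 and Aqp5 in each library (points, with a symbol for each replicate number), with the mean (bar) and SD (error bar, n = 3) of each population; each panel has its own axis from 0. Aqp1 steps down from 138 to 32.9 to 4.79 CPM, Aqp5 is at 407 CPM or more in every HR-positive LP and ML library, and HR-negative LP replicate 3 is the library of its population closest to the others for Aqp3.

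The water-selective channels Aqp2 and Aqp4 were scarce, as was Aqp6. Aqp2, the vasopressin-regulated channel of the renal collecting duct, was detected in all 9 libraries, at 0.303, 1.43 and 0.895 CPM in HR-negative LP. It was at 1.49, 1.71 and 1.42 CPM in the HR-positive LP libraries and at 1, 2.36 and 1.70 CPM in ML. It was not called in any comparison, and its log2 differences from HR-negative LP were 0.80 (SE 0.63) and 0.94 (SE 0.64). Aqp2 lies next to Aqp5, which in ML stood at 436 per kilobase against 1.19 for Aqp2. Aqp6, the neighbour of Aqp5 on the other side, had no count in ML. Aqp4, the channel of astrocyte end-feet, had 0, 98 and 25 counts in HR-negative LP (0, 1 and 0.895 CPM), 0, 16 and 0 counts in HR-positive LP, and no count in ML. Aqp6, a channel of intracellular vesicles in the kidney, had 33, 42 and 0 counts in HR-negative LP, 1, 17 and 0 in HR-positive LP, and none in ML. The 3 ML libraries with no count allow at most 0.110, 0.0643 and 0.0741 CPM for either gene. Neither was called, and Aqp4 was called lower in ML than in HR-negative LP without HR-negative LP replicate 1, the library of that population without an Aqp4 count.

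The other aquaglyceroporins were at the edge of detection. Aqp7, the glycerol channel of adipocytes, was at 0.343, 0.563 and 0.644 CPM in HR-negative LP. The HR-positive LP libraries held 0.248, 0.669 and 0.0548 CPM, and ML 0, 0.149 and 0.0471 CPM. The HR-negative LP and ML libraries did not overlap, but the log2 difference of -2.88 (SE 1.34) was not called. Adipocyte markers were read beside it: Adipoq, Plin1, Cidec and Lep had no count in HR-negative LP, the population with the highest mean of Aqp7, whereas Fabp4 was at 2.95, 2.27 and 2.60 CPM and Retn at 0.167, 0 and 0 CPM. The 6 markers summed to between 0.607 and 5.22 CPM in any library, and their part in the Aqp7 level was not tested. Aqp9, the glycerol channel of hepatocytes, had between 0 and 14 counts per library and was the 1 member that did not pass the filter on low counts, so it was not tested.

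Aqp8 and Aqp11 lie outside both classes. Aqp8, which passes water, ammonia and hydrogen peroxide, had no count in any HR-negative LP library. The HR-positive LP libraries had 0, 8 and 29 counts and those of ML 0, 16 and 17, at most 0.400 CPM. Aqp11, a channel of intracellular membranes, was at 0.545, 0.0102 and 0 CPM in HR-negative LP, from 27, 1 and 0 counts. The HR-positive LP libraries held 2.31, 0.482 and 0.778 CPM, and the ML libraries 0.804, 1.32 and 0.683 CPM. HR-negative LP replicate 1 overlapped HR-positive LP, whereas all ML libraries lay above all HR-negative LP libraries. Neither gene was called. Without HR-negative LP replicate 1, Aqp11 was called higher in both other populations. The deposited length of Aqp11 is 1322 bases against 5798 for its longest GENCODE transcript, so reads beyond the counted part are not in its level.

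Across the members, 8 of 9 passed the filter on low counts. Relative to HR-negative LP, 1 of 8 members was higher and 1 lower in HR-positive LP, where 29.9% of all tested genes were called, 17.2% higher and 12.8% lower. Between ML and HR-positive LP 0 were higher (also by DESeq2 and limma voom, and at an unadjusted edgeR p below 0.05) and 1 was lower in ML, where 6.79% of all tested genes were called, 0.0943% higher and 6.7% lower. That was 15 genes higher, and 71 with the replicate number as a block. Between ML and HR-negative LP 1 was higher and 1 lower in ML, where 44.6% were called, 23.3% higher and 21.3% lower. Libraries of both populations were apart for 2, 1 and 4 of the 8 members in these comparisons, where 43.9%, 27% and 53.1% of tested genes were apart. The members were chosen with these results known, and nothing is read from the counts.

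**Figure D4:**
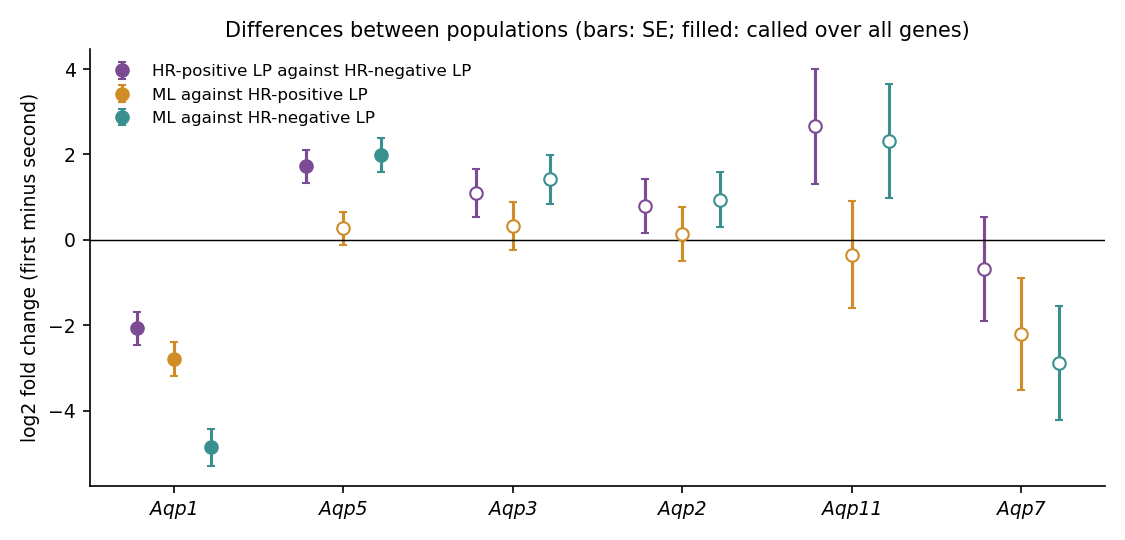
Log2 fold change (first population minus second) with its SE for 6 aquaporins in the 3 comparisons; filled points were called over all genes. Aqp1 is below 0 in all 3, and Aqp5 is near 2 against HR-negative LP and at 0.27 between ML and HR-positive LP.

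Genes whose levels over the 9 libraries were most like those of each aquaporin were ranked by Pearson correlation of log2 CPM, among at least 9197 genes with a mean above 3 on that scale. The points share population and library, so this is a description. Aqp1 was most like Lrg1, a secreted leucine-rich glycoprotein gene (r = 0.997), Pim1, a serine/threonine kinase gene (0.995), Sh3d21, Pard6b, a cell polarity gene, and the apolipoprotein gene Apoe (0.991). Mean levels of Lrg1 were 444, 141 and 37.0 CPM, and those of Apoe 214, 64.7 and 6.73 CPM. Aqp5 was most like the proteasome gene Psmd3 (0.987), the G protein gene Gnai2, Dkkl1, Cox8a and Ssbp4. Means of Dkkl1 were 29.0, 96.4 and 112 CPM, and those of Gnai2 371, 467 and 484 CPM. Aqp3 was most like Ap1g1 (0.983), Gna13, Ace, Zfp84 and B4galt1, a galactosyltransferase gene that takes part in lactose synthesis (141, 215 and 246 CPM). The scarce Aqp2 was most like Arhgap35 (0.980), Spire1, Pggt1b, Gigyf2 and Ank3, and Aqp11 most like Pigs (0.976), Keap1, Arpin and Mdp1.

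Water follows ions, and the genes that move ions across the epithelium were read from a list of 19, of which 18 were tested. Slc12a2 encodes NKCC1, the basolateral cotransporter that loads secretory cells with chloride. It was at 414 ± 217, 10624 ± 1217 and 15406 ± 2888 CPM and rose in both comparisons with HR-negative LP, with a log2 fold change of 4.68 (SE 0.36, edgeR adjusted p = 7.84e-06) and 5.22 (SE 0.37, adjusted p = 9.04e-07). Its rise was thus in the direction of Aqp5. From HR-positive LP to ML it differed by 0.54 (SE 0.31, adjusted p = 0.559).

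The potassium channel genes Kcnn4 and Kcne3 fell, as Aqp1 did, from each population to the next. Kcnn4, a calcium-activated channel, was at 80.5 ± 16.3, 20.6 ± 3.83 and 0.268 ± 0.141 CPM, with log2 fold changes of -1.97 into HR-positive LP (edgeR adjusted p = 0.000213) and -6.32 from there into ML (adjusted p = 9.35e-07). Kcne3, a regulatory subunit of epithelial potassium channels, was at 47.0 ± 8.27, 15.9 ± 2.10 and 0.457 ± 0.256 CPM and fell in the same comparisons, with log2 fold changes of -1.56 (adjusted p = 0.00119) and -5.19 (adjusted p = 2.38e-06). Cftr, the apical chloride channel gene, had no count in any library.

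Subunits of the epithelial sodium channel ENaC moved apart. Scnn1b, the beta subunit, fell from 156 ± 20.9 to 60.8 ± 7.47 and 18.4 ± 2.07 CPM, and its log2 fold change from HR-negative LP to ML was -3.08 (SE 0.16, edgeR adjusted p = 1.46e-07). The other subunits were added after their values were seen. Scnn1a, the alpha subunit, rose from 60.2 ± 11.8 to 198 ± 19.1 CPM in HR-positive LP (log2 fold change 1.71, SE 0.16, adjusted p = 3.12e-05) and was at 238 ± 24.7 CPM in ML. Scnn1g, the gamma subunit, was at 10.7 ± 3.28, 3.65 ± 0.772 and 1.04 ± 0.610 CPM and fell from HR-negative LP to ML (adjusted p = 0.000122).

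Relative to HR-negative LP, 3 of the 18 tested ion transport genes were higher in HR-positive LP and 8 were lower (over all tested genes 17.2% and 12.8%), with a median log2 fold change of -0.28 beside 0.01 over all tested genes. In ML, 0 were higher and 6 lower relative to HR-positive LP (over all 0.0943% and 6.7%; median -0.22 beside 0.01), and 4 were higher and 9 lower relative to HR-negative LP (over all 23.3% and 21.3%; median -0.48 beside 0.03).

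**Figure D5:**
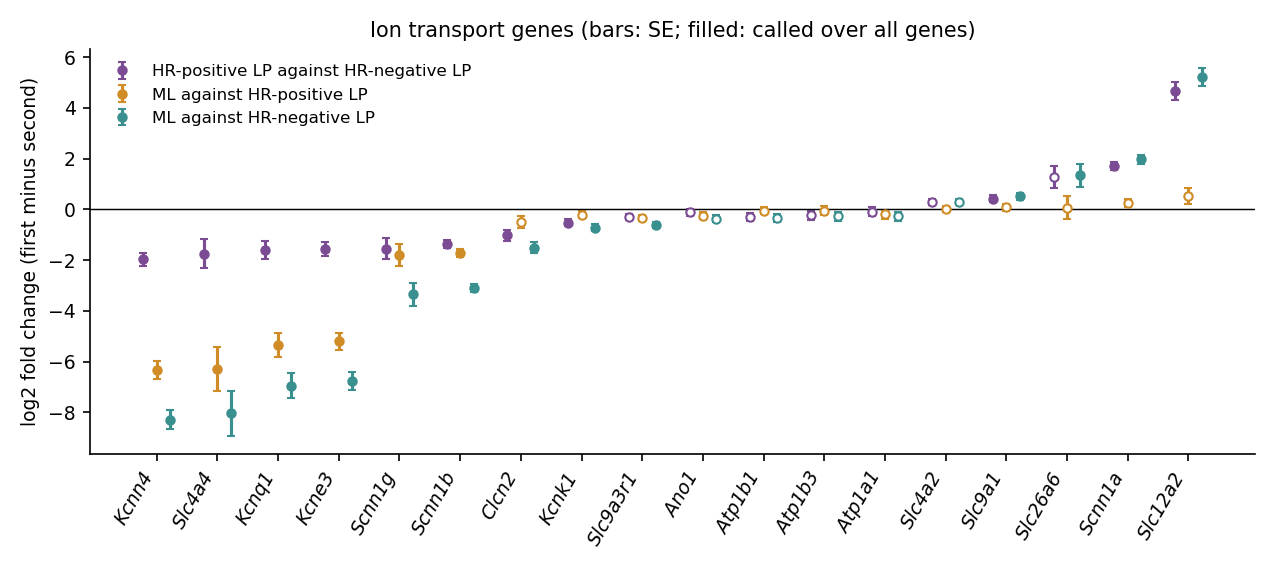
Log2 fold change (first population minus second) with its SE for 18 ion transport genes in the 3 comparisons, ordered by ML against HR-negative LP; filled points were called over all genes. Kcnn4 is at -8.29 and Slc12a2 at 5.22 at the ends of the order, and the ENaC subunit gene Scnn1a lies on the opposite side of 0 from Scnn1b and Scnn1g.

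Genes around glycerol, which Aqp3, Aqp7 and Aqp9 carry, split by direction. Gpam, the first acyltransferase of glycerolipid synthesis, rose from 8.12 ± 0.518 CPM to 51.3 ± 8.54 CPM in HR-positive LP (log2 fold change 2.66, SE 0.22, edgeR adjusted p = 1.1e-05) and was at 70.9 ± 20.5 CPM in ML. Lipe, hormone-sensitive lipase, rose from 43.4 ± 6.77 to 89.5 ± 6.90 CPM (1.04, SE 0.15, adjusted p = 0.000488) and was at 99.7 ± 11.1 CPM in ML. Mgll, the lipase that releases glycerol from monoacylglycerol, fell from 175 ± 18.5 CPM in HR-negative LP to 1.78 ± 1.80 CPM in ML (-6.70, SE 0.60, adjusted p = 5.38e-06), with HR-positive LP at 52.4 ± 5.07 CPM. Its difference between HR-positive LP and HR-negative LP was called (adjusted p = 0.0163), but not without HR-positive LP replicate 2 (0.0618) or 3 (0.0578). Pgp, glycerol-3-phosphate phosphatase, fell by 1.22 into HR-positive LP (adjusted p = 0.00619). Its difference of -0.92 between ML and HR-positive LP had adjusted p = 0.0787, and 0.00654 with the replicate number as a block. Relative to HR-negative LP, 2 of 10 tested glycerol genes were higher in HR-positive LP and 4 lower (over all tested genes 17.2% and 12.8%), and 3 were higher in ML and 5 lower (over all 23.3% and 21.3%). Between ML and HR-positive LP, 0 were higher and 1 lower in ML (over all 0.0943% and 6.7%). The median log2 fold change was -0.36 for HR-positive LP and -0.53 for ML relative to HR-negative LP, and -0.17 between ML and HR-positive LP, beside 0.01, 0.03 and 0.01 over all tested genes.

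Genes of cell volume control and of aquaporin placement also moved in both directions. Stk39, the kinase SPAK that activates NKCC1, fell from 332 ± 8.51 to 107 ± 7.64 CPM in HR-positive LP (log2 fold change -1.63, SE 0.17, edgeR adjusted p = 5.83e-05) and to 13.7 ± 3.33 CPM in ML (-2.97, SE 0.18, adjusted p = 1.72e-06), opposite to the cotransporter gene Slc12a2. Lrrc8b, a subunit of the volume-regulated anion channel, rose from 6.74 ± 3.25 to 45.3 ± 3.73 CPM (2.74, SE 0.31, adjusted p = 8.86e-05). Slc5a3, the myo-inositol transporter, fell from 120 ± 16.3 CPM in HR-negative LP to 29.9 ± 7.36 CPM in ML (adjusted p = 8.59e-06), and Trpv4, an osmotically sensitive cation channel, fell by 2.25 on the log2 scale (adjusted p = 0.000482). With HR-negative LP as the base, 3 of 14 tested volume genes were higher in HR-positive LP and 4 lower (over all tested genes 17.2% and 12.8%), and 4 were higher in ML and 5 lower (over all 23.3% and 21.3%). In ML 0 were higher and 2 lower when set against HR-positive LP (over all 0.0943% and 6.7%). Medians were -0.27, -0.45 and -0.08 in that order, beside 0.01, 0.03 and 0.01 over all.

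Ezr encodes ezrin, which ties membrane proteins to the actin cortex, and rose from 775 ± 78.7 to 1501 ± 40.1 CPM in HR-positive LP (log2 fold change 0.95, SE 0.13, edgeR adjusted p = 0.000323). Nedd4l, a ubiquitin ligase of ENaC, fell by 1.76 from HR-negative LP to ML (adjusted p = 2.72e-05) and the chaperone gene Hspa8 by 1.09 (adjusted p = 0.000255). The difference in Hspa8 between ML and HR-positive LP was -0.48 (adjusted p = 0.139, and 0.0408 with the replicate number as a block). With HR-negative LP as the base, 2 of 8 tested trafficking and anchoring genes were higher in HR-positive LP and 3 lower (over all tested genes 17.2% and 12.8%), and 2 were higher in ML and 3 lower (over all 23.3% and 21.3%). In ML 0 were higher and 2 lower when set against HR-positive LP (over all 0.0943% and 6.7%). Medians were 0.07, -0.19 and -0.23 in that order, beside 0.01, 0.03 and 0.01 over all.

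Hydrogen peroxide, which Aqp3, Aqp5 and Aqp8 can carry, is made and removed by enzymes of which 9 of 13 were tested. Prdx6, a peroxiredoxin gene, rose from 113 ± 25.8 to 362 ± 49.9 CPM in HR-positive LP (log2 fold change 1.67, SE 0.20, edgeR adjusted p = 0.000155) and was at 453 ± 82.3 CPM in ML. Nox4, an oxidase that makes hydrogen peroxide, fell from 60.5 ± 9.58 CPM in HR-negative LP to 6.45 ± 3.72 CPM in ML (-3.24, SE 0.38, adjusted p = 3.88e-05). Cat, catalase, fell by 1.59 in the same comparison (adjusted p = 0.000146), and Sod1 by 0.88 (adjusted p = 0.000575). The difference of -0.72 in Cat between ML and HR-positive LP had adjusted p = 0.087, and 0.0126 with the replicate number as a block. Relative to HR-negative LP, 2 of 9 tested enzyme genes were higher in HR-positive LP and 3 lower (over all tested genes 17.2% and 12.8%), and 3 were higher in ML and 4 lower (over all 23.3% and 21.3%). In ML 0 were higher and 1 lower when set against HR-positive LP (over all 0.0943% and 6.7%). Medians were -0.50, -0.88 and -0.38 in that order, beside 0.01, 0.03 and 0.01 over all. Over all 5 lists, 34 of 59 tested genes were called between HR-positive LP and HR-negative LP, where 29.9% of all tested genes were. Without HR-positive LP replicate 2 it was 20 list genes, and over all genes 1982 higher and 1211 lower in place of 2731 and 2033. In ML against HR-positive LP 0 were called higher by edgeR, 0 by limma voom and 1 by DESeq2, and 2 were higher at an unadjusted edgeR p below 0.05; 12 were called lower by edgeR.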

How the data were processed

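The deposited values are unnormalised read counts of each gene in 9 libraries. The submitters' processing notes name featureCounts and mm10; the aligner and annotation are not given in the sources used here. The table also lists a length per gene. Libraries came from a TruSeq v2 kit, per the labels' protocols. IDs were matched to RefSeq symbols (GRCm38.p6), 25275 of 27179. Genes passing edgeR's filterByExpr (15910) were fitted together over all 9 libraries with TMM scaling and edgeR's quasi-likelihood F test, adjusted by Benjamini-Hochberg over all of them and called at 0.05. The procedure was tested on simulated data. Intervals and limits cover counting error only.

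Members, lists and tests were chosen with earlier results of these data known. All aquaporins are named, the 4 members of each list with the smallest p in any comparison, and the 5 genes most correlated with each aquaporin that passed the filter and had a mean above 1 CPM in a population; Scnn1a and Scnn1g were added later. A few genes that this rule names are not reported here. Alternatives were other scaling, filters and tests, fits of only the populations compared, a replicate block and leaving out each library. HR-positive LP and ML libraries of the same number deviated together (correlations across genes of 0.183, 0.121 and 0.189), so the numbers may pair them, from the data alone; the labels do not say what a number marks. DESeq2 1.42.0, limma 3.58.1 and edgeR 4.0.16 ran in R 4.3.3, and other steps in Python 3.11.15.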

Additional observations from a re-analysis of the deposited data

How the results depend on the processing

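Aqp1 and Aqp5 kept their calls under all 17 alternatives of each comparison in which they were called. With limma voom, 4 members were called between the LP populations and 4 in ML against HR-negative LP, in place of 2, and leaving out single libraries gave 2 to 4 in the latter. The cause was not tested. Aqp3 was also called in ML against HR-negative LP with library totals alone (1.57) and with no filter (1.42), and Aqp4 with DESeq2. Differences between ML and HR-positive LP that were not called changed sign for Aqp2 with a replicate block (-0.01) and without ML replicate 2 (-0.18), for Aqp5 without ML replicate 2 (-0.14), and for Aqp11 with a replicate block (0.30) and without HR-positive LP replicate 1 (0.57). With 1 library left out these differences ran from -0.18 to 0.40, from -0.14 to 0.69 and from -0.72 to 0.57. The list genes called between the LP populations ranged from 20 to 35 when 1 library was left out. The order of levels per length changed for 2 scarce genes with the longest transcript in HR-negative LP and in ML, and for 2 with the median over libraries in both LP populations.

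Same-numbered libraries correlated at 0.039 to 0.147 between the LP populations and at 0.025 to 0.085 between ML and HR-negative LP. All 6 libraries of each comparison correlated best with their own number. The numbers may therefore pair libraries there too, although these correlations are small. With the replicate block, Aqp3 was called between the LP populations (1.31) and between ML and HR-negative LP (1.65); between ML and HR-positive LP, Pgp, Hspa8 and Cat gained calls and no member changed its call. Library totals alone moved the median of all genes from 0.01 to 0.12 between the LP populations, with 3182 genes higher and 1535 lower in place of 2731 and 2033, and from 0.03 to 0.19 in ML against HR-negative LP. Over all genes, 15 were higher in ML than in HR-positive LP, against 30 with library totals, 50 with limma voom, 71 with the replicate block, 88 with DESeq2, 216 with only these populations, and 4 to 63 with 1 library left out. The 2033 genes lower between the LP populations became 1329 or 1211 when HR-positive LP replicate 1 or 2 was left out. Among 22 named list genes 0 differences changed sign, and all calls held in ML against HR-negative LP. Between the LP populations 15 of 374 refits lost a call and 3 gained one, and in ML against HR-positive LP 11 and 12. Depth limits the scarce members: 3 counts correspond to 0.0277 to 0.110 CPM.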

Other observations

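Counts of the scarce aquaporins were uneven between libraries of 1 population. Aqp4 had 98 counts in HR-negative LP replicate 2 (1 CPM) and 25 in replicate 3 (0.895 CPM), but none in replicate 1, where no count allows at most 0.0592 CPM. Aqp11 had 27 counts in HR-negative LP replicate 1 and 1 in replicate 2, the library with the larger total. Aqp8 had 29 counts in HR-positive LP replicate 3 and none in replicate 1, libraries with totals of 92179701 and 99206739 counts. For these genes a level seen in 1 library was not seen in every library of its population, beyond counting error.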
